A study of Mus musculus with 3 samples.

Results

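The elastic fibre genes are 10 genes of the mouse genome, chosen by symbol, of the 33696 features counted: the elastic core protein gene Eln, the fibrillins Fbn1 and Fbn2, the fibulins Fbln1, Fbln2, Fbln5 and Efemp2, the cross-linking oxidases Lox and Loxl1, and the microfibril-associated glycoprotein gene Mfap5. All 10 were found, each as a single feature, and all 10 passed the filter on low counts in every comparison. They were measured by 3′ single-cell RNA sequencing in 3 libraries, each from a pool of 10 larynges (5 males and 5 females) of Lrig1CreERT2/+; ROSA26CAG-LSL-tdTomato/+ mice. Tamoxifen induced Cre in cells that transcribe Lrig1, a receptor-tyrosine-kinase regulator used as a stem cell marker, and tdTomato+ cells were sorted 24 hours after recombination. Wild-type and reporter-only mice set the sorting gates. The age of the animals is not given in the sources used here. All libraries share genotype, agent and time, so the comparisons are between groups of cells within them. The mice carry 1 allele with CreERT2 at Lrig1, and a cell entered the sort by the reporter it kept, whatever its Lrig1 level at collection.

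Elastic fibres give the vocal fold lamina propria its recoil. Tropoelastin, the product of Eln, is laid onto a scaffold of fibrillin microfibrils. Fibulin-5, fibulin-4 (the product of Efemp2) and lysyl oxidases then help to deposit and cross-link it. Fibroblasts and vascular smooth muscle cells are the textbook sources of these proteins.

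Cells were put into classes by UMIs (single captured transcripts) of 6 fixed marker genes per class, of which a cell had to hold at least 3. Of 44542 cells kept, 4640 were fibroblasts, 87 smooth muscle cells, 2183 muscle satellite cells, 29982 epithelial cells, 583 endothelial cells and 260 immune cells. Libraries 1, 2 and 3 held 159290890, 109781119 and 296253384 UMIs in 13222, 7201 and 24119 cells. The libraries shared 46 to 165 barcode sequences pairwise. Levels below are CPM, the UMIs of a gene summed over a class in a library and scaled to the class total there. UMIs were captured at the 3′ end, so levels are compared between groups and not between genes. The smooth muscle markers were Acta2, Tagln, Myh11, Cnn1, Rgs5 and Lmod1. The class was not split into vascular smooth muscle, pericytes or other cells with these markers, and the paper labels a cluster pericyte (smooth muscle cell). Smooth muscle rested on few cells, 66, 13 and 8 in libraries 1, 2 and 3. Of the 8 in library 3, 6 also held at least 3 of the 6 fibroblast markers, against 7 of 66 and 3 of 13. The smooth muscle levels are therefore also given for the cells under 3 fibroblast markers, of which library 3 held 2. Library 3 also held 880 barcodes that met both the fibroblast and the epithelial gate, against 9 and 1 in the others, and these were left out of every class.

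Fibroblasts carried all 10 genes. The level of Eln in fibroblasts was 380, 450 and 786 CPM in libraries 1, 2 and 3. Its level was 174, 701 and 176 CPM in endothelial cells, 24.2, 28.0 and 26.8 CPM in satellite cells, and 0.893, 0.171 and 3.72 CPM in epithelial cells. Library 2 was thus the high one among endothelial cells, where it rested on 32 cells, and the endothelial and fibroblast ranges of Eln overlapped. The level of Mfap5 was 539, 430 and 820 CPM in fibroblasts and at most 1.96 CPM in satellite, 5.33 CPM in endothelial and 4.79 CPM in epithelial cells. The level of Lox, which oxidises lysines for cross-links, was 242, 422 and 181 CPM in fibroblasts, so its spread among libraries was wide, with library 2 highest. Loxl1, a related oxidase needed for elastin renewal, stood at 192, 176 and 309 CPM. Fbn2, the fibrillin known from developing tissue, stood at 39.3, 69.9 and 68.3 CPM. The fibroblast ranges of Fbn1, Fbln1, Fbln2, Fbln5 and Efemp2 were 385 to 543, 518 to 697, 222 to 291, 151 to 192 and 47.8 to 66.9 CPM. The order of classes differed between genes. Fibroblasts lay above the smooth muscle, satellite, endothelial, epithelial and immune cells in each library for Fbn1, Fbn2, Fbln1, Fbln2, Lox, Loxl1 and Mfap5, whereas for Eln (endothelial cells and library 2), Fbln5 (satellite and smooth muscle cells) and Efemp2 (smooth muscle cells) another class was as high or higher in at least 1 library. The smooth muscle part of this order depended on the gate. In smooth muscle cells under 3 fibroblast markers, Fbln5 kept 3 of 86 UMIs. Efemp2 stood there at 41.1, 43.9 and 171 CPM, the last from 3 UMIs.

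**Figure D1:**
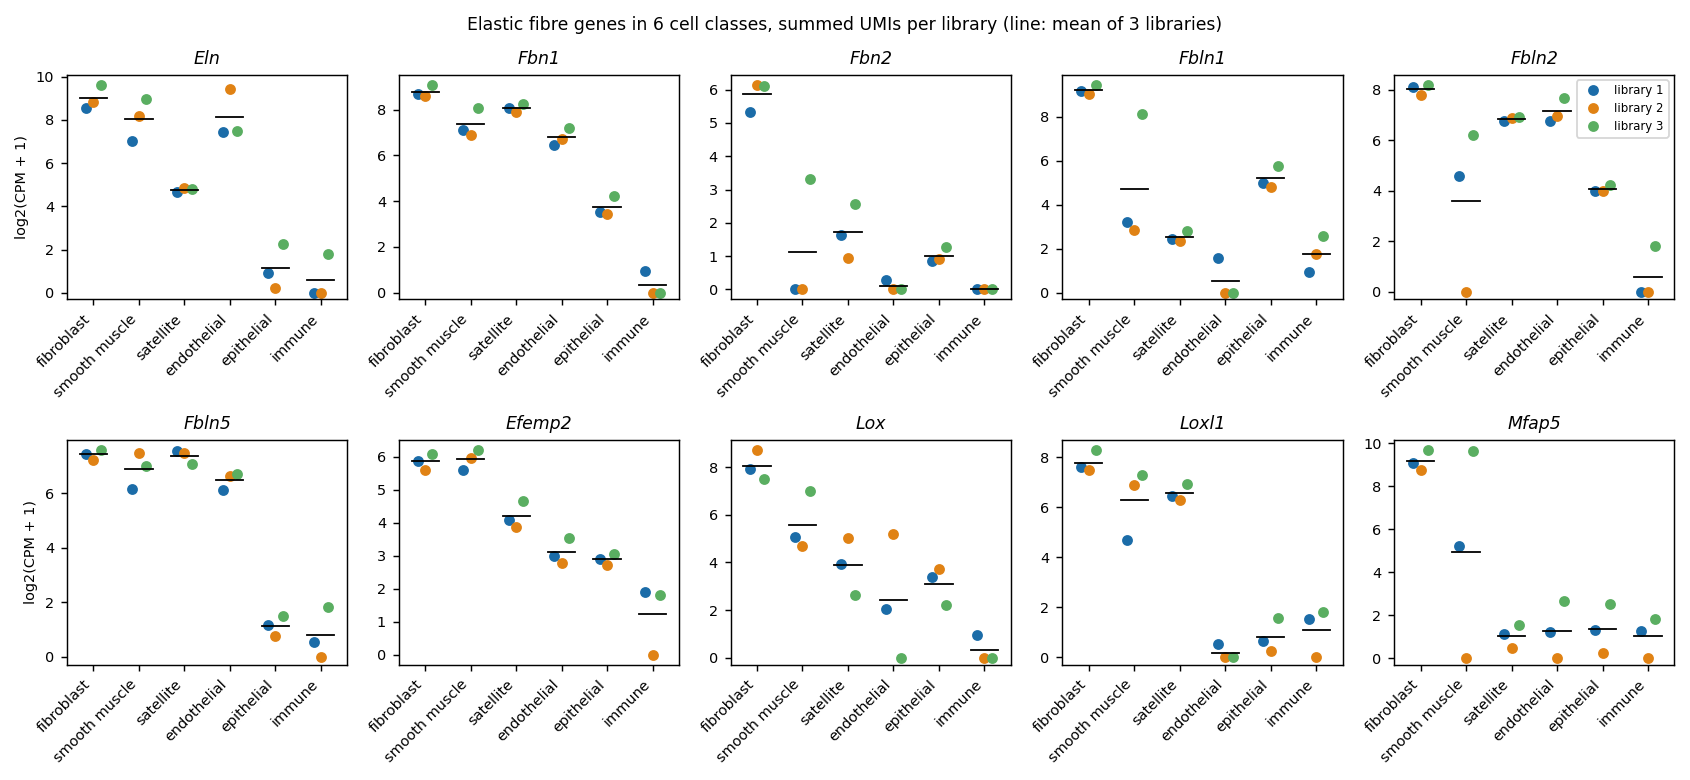
Level of each elastic fibre gene, as log2(CPM + 1) on the vertical axis, in 6 cell classes; points are the 3 libraries and the line is their mean. Fibroblasts hold all 10 genes, Fbn1, Fbln2, Fbln5, Efemp2 and Loxl1 in satellite cells and Eln, Fbn1, Fbln2 and Fbln5 in endothelial cells average at least 24.9% of the fibroblast level, and library 3 stands apart in smooth muscle for Fbln1 and Mfap5.

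Shares of cells depend on depth, so each cell was thinned to 5000 UMIs and shallower cells were left out, which kept 3824 fibroblasts. A UMI of Eln was found in 59.1% ± 8.61 of fibroblasts (SD, n = 3 libraries), of Fbn1 in 74.3% ± 4.35, of Fbln1 in 76.5% ± 3.89 and of Mfap5 in 76.9% ± 7.77. The shares for Fbln2, Lox and Loxl1 lay between 51.9% and 57.2%, that for Fbln5 ran from 38.1% in library 2 to 49.97% in library 3, and those for Efemp2 and Fbn2 were 23.0% ± 4.56 and 13.2% ± 2.04. Without thinning, the mean of the 10 shares was 63.8% in place of 53.2%. A fibroblast held UMIs of a median of 5, 5 and 6 of the 10 genes in libraries 1, 2 and 3, against 2 in satellite cells and 0 in epithelial and immune cells of every library. Immune cells, which should lack these genes, set the background: 0 of 189 thinned immune cells held a UMI of Eln, Fbn2, Fbln2, Fbln5, Lox or Mfap5, which allows a share of up to 1.59%. Efemp2 was found in 3 of the 189, Fbln1 and Loxl1 in 2 each and Fbn1 in 1. In epithelial cells a UMI of Eln was found in 0.619%, 0.103% and 3.35% of cells in libraries 1, 2 and 3, and of Mfap5 in 0.820%, 0.166% and 3.996%, with library 3 highest for both. Library 3 held 30 of the 189 immune cells, too few to set a limit of its own at this level. The shares of Fbn2 were 0.449%, 0.393% and 0.870%, and those of Fbln5 were 0.666%, 0.414% and 1.56%.

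**Figure D2:**
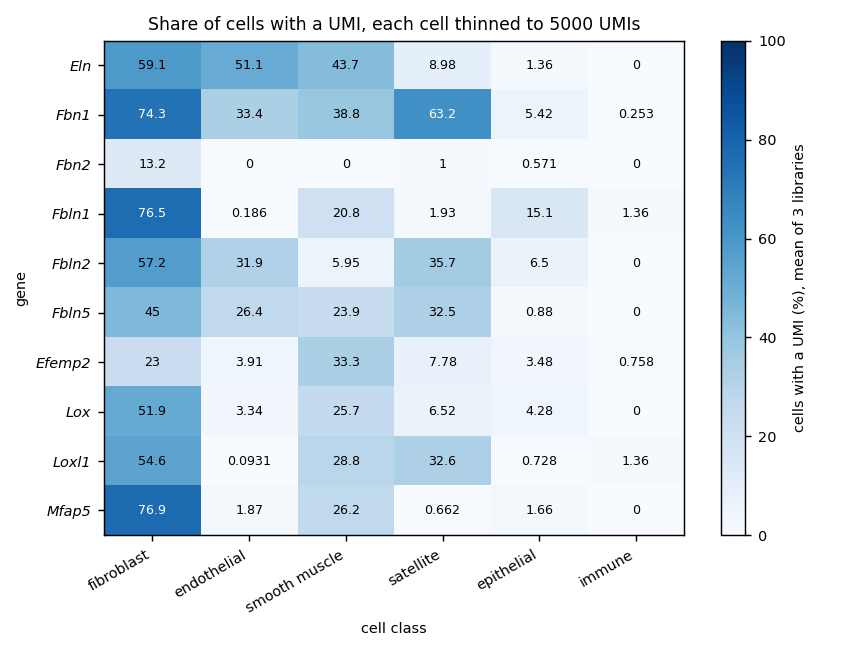
Percentage of cells with a UMI of each elastic fibre gene (rows) by cell class (columns) after thinning to 5000 UMIs, as the mean of 3 libraries. Fibroblasts hold 13.2% (Fbn2) to 76.9% (Mfap5), while immune cells hold at most 1.36%.

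Within fibroblasts, detection of each gene was compared between cells with and without a UMI of Eln. Cells with a UMI of Eln held a UMI of Fbln1 in 81.7% ± 5.54, against 68.0% ± 3.65 of cells without one (SD, n = 3). The difference was 13.6 points ± 8.10 and had the same sign in 3 of 3 libraries. For Loxl1 the difference was 13.3 points ± 2.92, for Fbln5 12.4 ± 7.46, for Fbn1 11.2 ± 5.32 and for Mfap5 8.97 ± 6.57, each positive in 3 of 3 libraries, as were the smaller differences of Fbln2 (5.45) and Fbn2 (3.02). Efemp2 was positive in 2 of 3 libraries. For Lox the difference was -1.01 points ± 11.95 and was positive in 1 of 3 libraries. Cells were compared at equal depth, and no test was run, since cells of a library are not replicates. Genes outside the 10 were not compared in this way, and whether the differences are particular to elastic fibre genes was not tested.

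Fibroblasts were first split by UMIs of Hhip, a Hedgehog-binding inhibitor, Wnt16, a Wnt ligand, or Col23a1, a transmembrane collagen. A UMI of at least 1 of them was found in 3590 fibroblasts, 77.4%, and in none of the other 1050. The group without was small in library 2, with 69 cells. Its cells were shallower in library 3, with a median of 6554.5 UMIs against 9072, and differed less in depth in libraries 1 and 2. By edgeR's quasi-likelihood test with Benjamini-Hochberg adjustment, 0 of the 10 elastic fibre genes differed, where 2.83% of all 13181 genes tested did (1.75% higher, 1.08% lower). Fbln1 and Fbln2 were the 2 below 0.05 before adjustment, as were 1681 of all genes. DESeq2 called 1 of the 10, Fbln2 (adjusted p = 0.0243), beside 693 genes over all. The median log2 difference of the 10 genes was -0.02, equal to that of all genes at this precision.

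Fbln2, a fibulin of basement membranes and microfibrils, stood at 242, 208 and 275 CPM in cells with these UMIs and at 374, 297 and 359 CPM in cells without. The lowest library of the group without lay above the highest of the group with, so the ranges did not overlap. The log2 difference was -0.55 (SE 0.15, adjusted p = 0.128). The libraries pair the groups, since each is a pool of the same animals. With the library as a replicate block, Fbln2 was called at a log2 difference of -0.55 and an adjusted p of 0.00742, and the number of genes called overall rose from 373 to 1157. Fbln1 went the other way, at 587, 557 and 760 CPM with and 521, 300 and 436 CPM without. It was higher in 3 of 3 libraries, with a log2 difference of 0.55 (SE 0.22, adjusted p = 0.351, and 0.0508 with the block). Eln was higher with these UMIs in 3 of 3 libraries, at 391, 462 and 866 against 344, 384 and 455 CPM, but the ranges overlapped. Its log2 difference was 0.50 (SE 0.28, adjusted p = 0.589). The share of thinned cells with a UMI of Eln was 55.8%, 59.9% and 74.9% with and 41.1%, 33.9% and 45.1% without, and these ranges did not overlap. The remaining 7 genes had log2 differences of -0.33 to 0.30 and adjusted p-values of 0.513 or more. The count over all genes depended on single libraries: without library 1, 0 genes were called, without library 2, 19, and without library 3, 689, in each case with 0 elastic fibre genes.

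A second split used Pi16 or Dpp4, markers of adventitial fibroblasts, with 1185 cells with a UMI and 3455 without. Of the 1185 cells, 1142 held Pi16 and 106 held Dpp4, so the group rested mostly on Pi16. Cells with these UMIs were deeper, with a median of 11567 UMIs against 9253. Again 0 of 10 genes passed the test, beside 0.205% of all 13683 genes (0.0292% higher, 0.175% lower), and 4 of the 10 were below 0.05 before adjustment, as were 1223 of all genes. The replicate block gave calls for 5 of 10, and for 654 genes over all (4.78%) in place of 28. DESeq2 called 2, Fbn1 and Fbn2, beside 298 genes over all. Without library 3, 216 genes and Fbn1 (adjusted p = 0.0274) were called, and without library 1 or 2, 0 genes. The fibrillins differed in opposite directions. Fbn1, the main fibrillin of adult microfibrils, stood at 613, 520 and 753 CPM with Pi16 or Dpp4 UMIs and at 322, 329 and 461 CPM without. Every library of the first group was above every library of the second. The log2 difference was 0.80 (SE 0.19), with an adjusted p of 0.166, and of 0.0046 with the block. Fbn2 stood at 18.2, 40.4 and 34.3 CPM with and at 49.0, 82.4 and 81.5 CPM without, again without overlap. Its log2 difference was -1.22 (SE 0.31, adjusted p = 0.201, and 0.00296 with the block). Counted together, Fbn2 made up 2.88%, 7.21% and 4.36% of the fibrillin CPM with these UMIs, and 13.2%, 20.04% and 15.01% without. The share is read between groups only, since levels are not compared between genes.

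Fbln1, Fbln2 and Mfap5 were also higher with Pi16 or Dpp4 UMIs in 3 of 3 libraries. Their log2 differences were 0.54, 0.53 and 0.54, with adjusted p-values of 0.356, 0.352 and 0.775, and of 0.0179, 0.0334 and 0.0464 with the block. Mfap5 stood at 766, 483 and 997 CPM with and 436, 407 and 751 CPM without, so library 2 of the first group lay inside the range of the second. Eln, Fbln5, Efemp2, Lox and Loxl1 had log2 differences of -0.11 to 0.38, and the block called none of them.

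**Figure D3:**
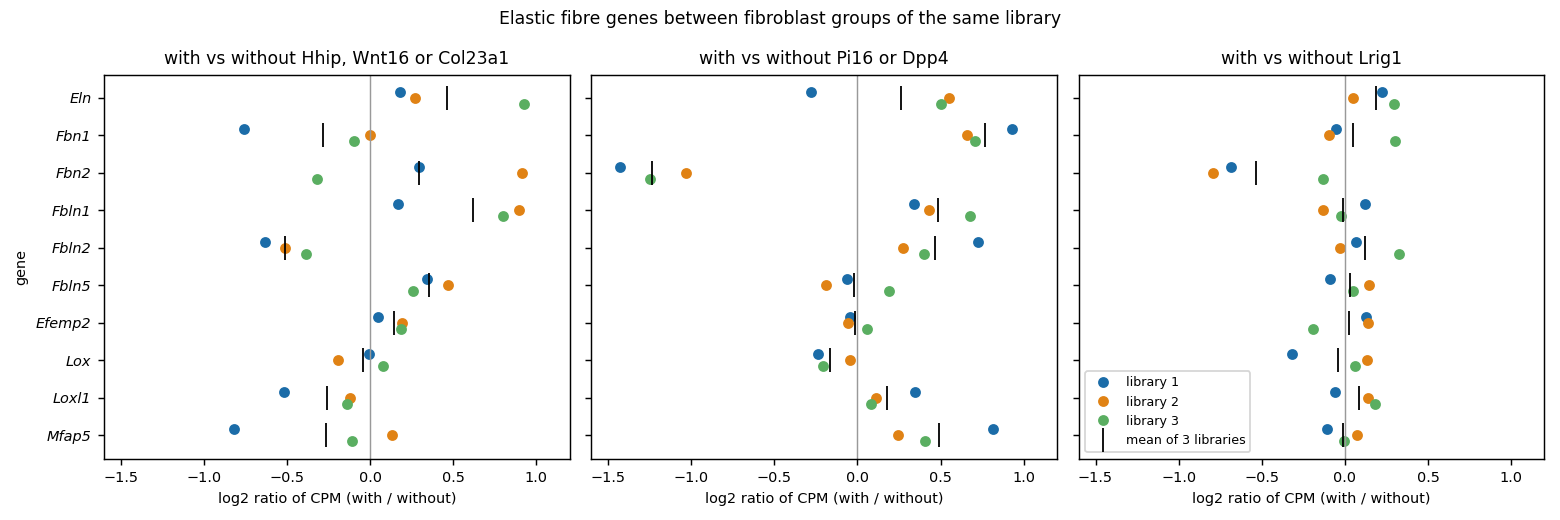
Log2 ratio of CPM between fibroblasts with and without UMIs of the genes named above each panel, for each library (points) and as the mean of 3 libraries (black tick); 0 is no difference. Fbn1 lies at 0.66 to 0.93 and Fbn2 at -1.43 to -1.03 in the Pi16 or Dpp4 panel, and Fbln2 at -0.63 to -0.38 in the Hhip, Wnt16 or Col23a1 panel.

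Both splits were then crossed, as a description without a test. The higher level of Fbn1 with Pi16 or Dpp4 UMIs held within each level of the first split: its log2 ratio was 0.60 ± 0.03 (SD, n = 3) among cells with Hhip, Wnt16 or Col23a1 UMIs and 1.18 ± 0.08 among cells without. Cells with Pi16 or Dpp4 but none of the first 3 genes, 243, 31 and 106 in the 3 libraries, had the highest mean of Fbn1 among the 4 groups, at 794, 550 and 946 CPM. The same group held 1048, 534 and 1239 CPM of Mfap5 and 490, 304 and 529 CPM of Fbln2. The lower level of Fbn2 held in 3 of 3 libraries in the first level and in 2 of 3 in the second, where library 2 had 31 and 38 cells. Fbln2 was lower with Hhip, Wnt16 or Col23a1 UMIs in 3 of 3 libraries within each level of the second split, with overlapping ranges. Its log2 ratio was -0.63 ± 0.22 among cells with Pi16 or Dpp4 UMIs and -0.25 ± 0.27 among cells without. Fbln1 was highest where both sets of genes were present, at 700.5, 732 and 1009 CPM, and lowest where neither was, at 400, 263 and 321 CPM.

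**Figure D4:**
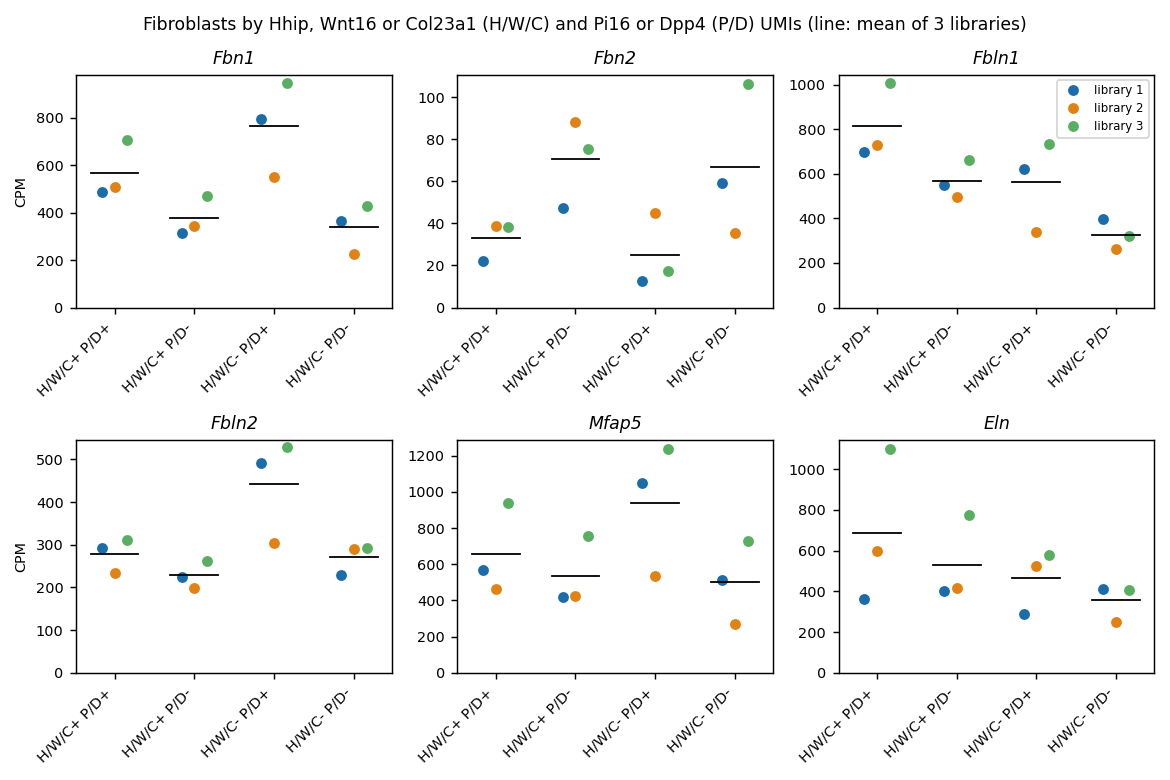
CPM of 6 elastic fibre genes in fibroblasts with (+) or without (-) UMIs of Hhip, Wnt16 or Col23a1 (H/W/C) and of Pi16 or Dpp4 (P/D); points are the 3 libraries, lines their means, and each vertical axis starts at 0. Fbn1, Fbln2 and Mfap5 have their highest means in the third group, Fbn2 has its lowest means in both groups with Pi16 or Dpp4, and Fbln1 is highest in the first group.

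The study compared Lrig1+ with Lrig1- cells. Among fibroblasts, 1402 held a UMI of Lrig1 and 3238 did not, and the first were deeper in every library. By edgeR, 0 of 10 elastic fibre genes differed, and 0% of 14075 genes did so. Before adjustment, 0 of the 10 and 177 of all genes were below 0.05, and DESeq2 called 1 gene, which was no elastic fibre gene. The largest log2 difference of the 10 was that of Fbn2, -0.50 (SE 0.32, adjusted p = 1.00), at 27.8, 47.4 and 64.6 CPM with and 44.8, 82.0 and 70.8 CPM without. The other 9 lay between -0.03 and 0.20. A p-value that misses the threshold does not show that the groups are alike. The SE of the 10 differences ran from 0.12 to 0.41, and the fit left differences above 0.41, such as that of Fbn2, uncalled. That fit did not use the pairing of the groups by library. With the library as a replicate block, 0 of the 10 were called, beside 0.249% of all genes.

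Between fibroblasts and epithelial cells, 10 of 10 genes were higher in fibroblasts, where 57% of 15135 genes were called (28.2% higher, 28.8% lower). The log2 difference ran from 3.15 (SE 0.19, adjusted p = 7.77e-08) for Efemp2 to 8.36 (SE 0.94, adjusted p = 8.42e-06) for Eln, with a median of 5.46 against -0.05 for all genes. Epithelial cells were the deeper class (median 14642.5 UMIs, against 9830 in fibroblasts). The level left in epithelial cells was set against that of Col1a1, Col1a2 and Col3a1, fibroblast collagens. Their summed epithelial level was 0.173%, 0.0310% and 0.437% of the fibroblast level in libraries 1, 2 and 3. These collagens are 3 of the 6 fibroblast gate markers, and the part of the gates in their ratio was not tested. The epithelial levels of Eln (0.235%, 0.0379% and 0.473%), Mfap5 and Loxl1 (0.291%, 0.103% and 0.646%) were the nearest to those collagen ratios by their means and lay above them in 3 of 3 libraries, with library 2 lowest and library 3 highest. Fbln5, at 0.705%, 0.453% and 0.937%, had the same order of libraries at a higher ratio. Efemp2 (11.3%, 11.7% and 10.9%), Fbln1 (5.41%, 5.29% and 7.76%), Fbln2 (5.45%, 6.78% and 6.09%), Lox, Fbn1 and Fbn2 stood at 1.24% or more in every library, although Fbln1 and Fbn2 shared the order of the collagens. The part of free RNA in these levels was not tested. Fbln1 was present at 30.9, 27.4 and 54.0 CPM in epithelial cells, and a UMI of it was found in 15.1% ± 5.39 of thinned epithelial cells, against 1.36% ± 1.75 of thinned immune cells (SD, n = 3).

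**Figure D5:**
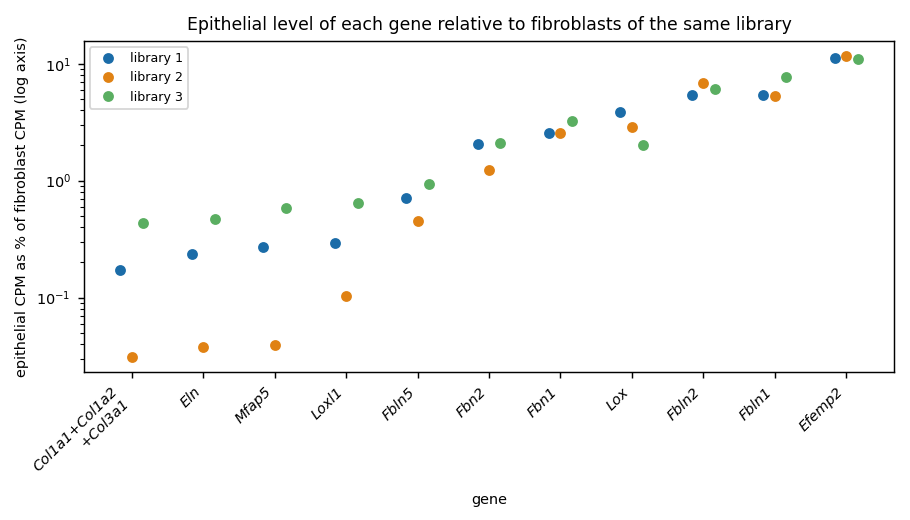
Epithelial CPM of each gene as a percentage of fibroblast CPM in the same library, on a log axis; points are the 3 libraries. Eln, Mfap5 and Loxl1 lie nearest to the summed fibroblast collagens at the left, above them in every library, while Efemp2 stays between 10.9% and 11.7%.

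Muscle satellite cells, the stem cells of skeletal muscle, were lower than fibroblasts for 8 of 10 genes, beside 41% of 15135 genes called (17.5% higher, 23.6% lower). The median log2 difference of the 10 was -2.86 against -0.03 for all genes. The log2 difference was -8.96 for Mfap5 (SE 1.54, adjusted p = 0.000556), -6.93 for Fbln1 (SE 0.80, adjusted p = 2.67e-05), -4.42 for Fbn2, -4.35 for Eln and -4.02 for Lox. It was smaller for Efemp2 (-1.70), Fbln2 (-1.203) and Fbn1 (-0.73, SE 0.25, adjusted p = 0.0324). Fbn1 stood at 271, 238 and 307 CPM in satellite cells, below every fibroblast library, but lost its call without TMM scaling, in thinned cells, without library 1 and without library 2 (adjusted p = 0.0956 to 0.211 without either). Fbln2, at 107, 116 and 120 CPM, lost its call without library 1 (adjusted p = 0.162). Loxl1 stood at 85.0, 77.8 and 120 CPM against 192, 176 and 309 CPM, with a log2 difference of -1.28 (SE 0.59, adjusted p = 0.104, and 0.0306 with the replicate block). Fibroblast collagens reached 7.97%, 4.59% and 6.87% of their fibroblast level in satellite cells. Fbn1, Fbln2, Fbln5, Efemp2 and Loxl1 were above that ratio in 3 of 3 libraries, and Eln, Fbn2 and Lox in 1 of 3. Fbln1 and Mfap5 were below it in 3 of 3, with Mfap5 at 0.216%, 0.0875% and 0.239% of its fibroblast level. The part of free RNA in the collagens or in these genes was not tested.

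Fbln5, which binds tropoelastin and lysyl oxidases, stood at 186, 176 and 135 CPM in satellite cells and at 175, 151 and 192 CPM in fibroblasts, so the ranges overlapped. It was higher in 2 of 3 libraries, and the log2 difference was -0.06 (SE 0.30, adjusted p = 0.909). Among the fibulins, Fbln1 and Fbln5 mark the ends of the differences between these classes. Of the 10 genes, 5 had a promoter in the RefSeq table used here (GRCm38.p6). The stretches of Fbln1 and Fbln5 from 250 to 52 bases before the RefSeq start are shown because these fibulins bound that range. They lie at chr15:85205699-85205897 (+ strand) and chr12:101819171-101819369 (- strand), with E-box letters (CANNTG, both strands) in capitals.
Fbln1: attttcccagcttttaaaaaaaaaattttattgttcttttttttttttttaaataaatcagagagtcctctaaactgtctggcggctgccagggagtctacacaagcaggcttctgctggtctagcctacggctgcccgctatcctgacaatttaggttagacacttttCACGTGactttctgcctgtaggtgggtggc
Fbln5: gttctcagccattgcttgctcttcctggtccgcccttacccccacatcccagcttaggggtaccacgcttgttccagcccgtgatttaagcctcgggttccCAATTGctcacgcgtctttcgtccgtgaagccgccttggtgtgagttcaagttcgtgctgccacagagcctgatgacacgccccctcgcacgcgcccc
Each stretch held 1 E-box match, and 58.9% of 32851 promoters held at least 1 in the same window. Fbln5 also held 1 match to CCAAT (28.2% of promoters) and 1 to GGGCGG (24.4%), and Fbln1 held neither. Neither stretch held TATAAA (9.11% of promoters in the same window) or TGACTCA (3.59%), and both strands were searched for every motif. Bases nearer the start than 52 were not searched, so a TATAAA there would not have been seen. Fbln2 had the same match counts as Fbln1 for each of these motifs. In GRCm39, Fbln1 spans bases 85090150 to 85170737 of chromosome 15 and Fbln5 bases 101712556 to 101785429 of chromosome 12.

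Smooth muscle cells were lower than fibroblasts for 5 of 10 genes (Fbn1, Fbn2, Fbln1, Fbln2 and Lox), beside 16.1% of 15135 genes called (6.88% higher, 9.23% lower). The median log2 difference was -1.67 against -0.22 for all genes. Fbln2 stood at 23.0, 0 and 72.5 CPM, a log2 difference of -3.43 (SE 0.41, adjusted p = 0.000225). Fbn1 stood at 136, 116 and 272 CPM, a log2 difference of -1.58 (SE 0.28, adjusted p = 0.00242). Fbn2 had 1 UMI in 882617 smooth muscle UMIs, 2.10% of the fibroblast level (95% exact interval of counting error, 0.0531% to 11.7%). Eln stood at 128, 288 and 499 CPM and Efemp2 at 47.6, 61.3 and 72.5 CPM, with log2 differences of -1.11 (SE 0.75, adjusted p = 0.376) and -0.15 (SE 0.26, adjusted p = 0.775). In library 3, Mfap5 stood at 807 CPM and Fbln1 at 281 CPM, against at most 36.1 and 8.21 CPM in the others, and all 89 Mfap5 UMIs were in the 6 cells that held at least 3 fibroblast markers. Fibroblast collagens in smooth muscle were 65.9% of the fibroblast level in library 3, against 16.4% and 18.2%.

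With smooth muscle restricted to cells under 3 fibroblast markers (59, 10 and 2 cells), an alternative chosen after seeing the data, 9 of 10 genes were called lower, beside 10.9% of the 15119 genes tested in that fit (6.83% were called higher). The gate bars cells for holding fibroblast genes, and its part in these lower levels was not tested. Eln stood at 45.01, 43.9 and 57.1 CPM, from 23, 4 and 1 UMIs. Its log2 difference was -3.67 (adjusted p = 0.0169), and it kept 28 of its 180 UMIs. Fbn1 stood at 123, 76.8 and 114 CPM, Fbln1 at 9.78, 11.0 and 0 CPM, Fbln2 at 27.4, 0 and 0 CPM and Mfap5 at 19.6, 0 and 0 CPM, so that the library 3 values of the last 3 were listed at 0 without the 6 cells. Lox stood at 27.4, 11.0 and 0 CPM and Loxl1 at 13.7, 65.8 and 0 CPM, while Fbn2 had no UMI left. In the 2 cells of library 3, 1 UMI amounted to 57.1 CPM, so a 0 there does not show a low level. Fbln5 kept 3 of 86 UMIs, and Efemp2 alone was not called, at 41.1, 43.9 and 171 CPM (adjusted p = 0.488), the last from 3 UMIs. The main gate held 87 cells, 66 of them in library 1. With that gate, 0 of 10 genes were called without library 1, 3 without library 2 and 7 without library 3. Over all genes these refits called 111 to 2921, against 2438 in the main fit. Calls of elastic fibre genes in smooth muscle thus depended on the gate and on which library was left out, while calls over all genes changed too.

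In endothelial cells, described without a test, Eln, Fbln2, Fbln5 and Fbn1 averaged 24.9% or more of the fibroblast level and Efemp2 13.5%. Fbln2 stood at 109, 125 and 205 CPM, Fbln5 at 69.1, 98.0 and 104 CPM and Fbn1 at 85.9, 104 and 147 CPM. Mfap5, Loxl1 and Fbln1 were at most 5.33, 0.437 and 1.97 CPM. Fibroblast collagens in endothelial cells were at most 0.308% of the fibroblast level, whereas Eln was 74.6% ± 71.2 of it (SD, n = 3), with library 2 highest.

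Of 22 further elastic fibre and microfibril genes, 21 were tested between classes. Against epithelial cells 16 were higher in fibroblasts (28.2% of all genes were), 1 was lower (28.8% of all) and 4 did not pass the test. The lower one, Loxl4, a lysyl oxidase relative, had a log2 difference of -1.19 (adjusted p = 0.00337) and is named after its value was seen, being under the level set for naming. Mfap4, a microfibril-associated glycoprotein, had a log2 difference of 8.62 (SE 1.41, adjusted p = 0.000199), and Fbln7 one of 7.65 (SE 0.40). In satellite cells 16 were lower than in fibroblasts (23.6% of all genes were), among them Mfap4 (log2 difference -7.25) and Fbln7 (-6.17). There 0 were higher and 5 did not pass the test. In smooth muscle 10 were lower (9.23% of all genes were), 1 was higher (6.88% of all) and 10 did not pass the test. The replicate block there called 12 lower (10.8% of all genes) and 1 higher (7.26% of all). Thsd4, an ADAMTS-like protein that binds fibrillin-1, was the higher one, at 437, 828 and 72.5 CPM against 38.0, 31.2 and 43.3 CPM (log2 difference 3.52, SE 0.57, adjusted p = 0.00142). In the smooth muscle cells under 3 fibroblast markers Thsd4 stood at 382, 647 and 0 CPM. The 0 came from the 2 cells of library 3, where 1 UMI amounted to 57.1 CPM. Mfap2, a microfibril glycoprotein, was lower at a log2 difference of -3.09. Hmcn1, a hemicentin, had 0 UMIs in smooth muscle and was at least 21.6-fold lower, taking 3 UMIs over the group as the floor. Fbln7 had 3 UMIs there, 5.71% of the fibroblast level (95% exact interval 1.18% to 16.7%). In the split by Hhip, Wnt16 or Col23a1, 1 of 22 was called, near the 2.83% of all genes: Emilin2, an elastin microfibril interfacer, at 27.7, 17.7 and 22.7 CPM with and 90.6, 53.0 and 47.4 CPM without (log2 difference -1.55, SE 0.30, adjusted p = 0.0393). In the splits by Pi16 or Dpp4 and by Lrig1, edgeR called 0 of 22 (0.205% and 0% of all genes), with 4 and 0 below 0.05 before adjustment. With the replicate block, 6 of 22 were called in the Hhip, Wnt16 or Col23a1 split, 2 higher and 4 lower, beside 8.78% of all genes. In the Pi16 or Dpp4 split the block called 2, both higher, beside 4.78% of all genes, and in the Lrig1 split 0, beside 0.249%. The 2, named after their values were seen, were Adamtsl5 (log2 difference 0.73, adjusted p = 0.00813) and Adamts17 (0.47, adjusted p = 0.0243).

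Of 15 proteases and inhibitors that act on elastic fibres, 10 were expressed enough to be tested. Against epithelial cells 8 were higher in fibroblasts (28.2% of all genes were), with Mmp2, a gelatinase, at a log2 difference of 7.69 (SE 1.15), and 1 lower (28.8% of all). The lower one was Timp4, at -1.63 (SE 0.59, adjusted p = 0.0308) and means of 2.04 CPM in fibroblasts and 6.64 CPM in epithelial cells. In satellite cells 8 were lower (23.6% of all genes were), with Ctsk, a collagen- and elastin-cleaving cathepsin, at -7.86 (SE 0.41). In smooth muscle 5 were lower (9.23% of all genes were) and 1 higher (6.88% of all), Timp4, a metalloproteinase inhibitor, at 75.5, 116 and 0 CPM against 3.18, 1.40 and 1.53 CPM (log2 difference 4.93, SE 0.71, adjusted p = 0.000728). Timp4 stood at 66.5, 43.9 and 0 CPM in the smooth muscle cells under 3 fibroblast markers, where 1 UMI in the 2 cells of library 3 amounted to 57.1 CPM. In smooth muscle the replicate block called 6 of 10 lower (10.8% of all genes), as did the gate under 3 fibroblast markers (10.9% of all). In the 3 splits of fibroblasts edgeR called 0 of 10, beside 2.83%, 0.205% and 0% of all genes, with 1, 1 and 0 below 0.05 before adjustment, where 1681, 1223 and 177 of all genes were. With the replicate block 2 of 10 were called in the Hhip, Wnt16 or Col23a1 split (8.78% of all genes), both higher, and 0 in the others. They were Timp3 (log2 difference 0.90, adjusted p = 0.00135) and Mmp2 (0.36, adjusted p = 0.0184), named after their values were seen.

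Genes of like pattern were sought over 15 sums (5 classes in 3 libraries) among 10733 genes, by Pearson's r of log2(CPM + 1). These points share libraries and depth and fall into classes, so r describes the class pattern and no p is given. The nearest to Eln was Nid1 (r = 0.97), to Fbn1 Mir100hg (0.99), to Fbn2 Gpr153 (0.99), to Fbln1 Fzd2 (0.97), to Fbln2 Adamts1 (0.99) and to Fbln5 Tmem47 (0.99). For Efemp2 it was Sec31a (0.98), for Lox Nfatc4 (0.94), for Loxl1 Lrrc17 (0.99) and for Mfap5 Pi15 (0.99). No member was among the 3 genes nearest to another member.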

How the data were processed

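The authors aligned the reads to GRCm39 (mm39) with Cell Ranger 8.0.1 and deposited raw UMI counts per gene and barcode, without normalization. From these counts, 60530 barcodes were filtered to those with 500 to 8000 genes, a total of 1000 to 40000 UMIs and a mitochondrial share of 8% or less. The study's text states the first 2 ranges for UMIs and genes respectively, the reverse. Simulated doublets among neighbours on 30 principal components (scanpy 1.11.5, scikit-learn 1.9.0) removed 4851 barcodes, at 0.4% per 1000 barcodes. A cell with 2 or more exclusion markers of another class at 2 or more UMIs was left out of its class.

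Sums of counts for each group in each library entered edgeR 4.0.16 (TMM, filterByExpr, quasi-likelihood, 2-sided). P-values were adjusted by Benjamini-Hochberg across the whole table, and called at 0.05. Each SE was derived from the edgeR test, as the absolute log2 difference divided by the square root of its F statistic. DESeq2 1.42.0 served as another tool. Gate markers and the genes that set a split were left out. Fibroblasts, epithelial, smooth muscle and satellite cells shared 1 fit of 12 sums, and each split had its own fit of 6. Thinning drew a fixed number of UMIs per cell. The members, lists, gates and tests were chosen with earlier results of these data known. From the lists, the 3 largest rises and falls were named, among called genes with a mean of at least 10 CPM over all sums of the fit, which for the 4 classes includes classes outside the comparison. Deviations of same-numbered sums from their group means correlated at 0.151 to 0.692, except for smooth muscle against fibroblasts (0.0652 to 0.0877). The epithelial split by Trp63 and the groups by single fibroblast genes were chosen after seeing the data. Intervals and floors cover counting error only. Same-numbered sums come from the same pool of animals, which is the pairing. Without the block, p-values measure the spread between sums of 3 pools, which includes the sampling of few cells in small groups. With the block, they measure the spread of differences within libraries.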

Additional observations from a re-analysis of the deposited data

Results flagged for a closer look

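A signal appeared in barcodes outside the comparisons. The 880 barcodes of library 3 that met both the fibroblast and the epithelial gate held 85.9 CPM of Eln, 124 CPM of Fbln1 and 81.7 CPM of Mfap5. In epithelial cells of that library the levels were 3.72, 54.0 and 4.79 CPM, and in its fibroblasts 786, 697 and 820 CPM. Groups of 3 libraries are too small for the outlier check, so no library was flagged by it.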

How the results depend on the processing

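Of 670 refits of single elastic fibre genes, 608 kept direction and side of the threshold. All 10 fibroblast against epithelial calls held under every alternative run. The cause of each change below was not tested, other than fewer samples where a library was left out.

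With the replicate block, calls over all genes were 1157 (Hhip, Wnt16 or Col23a1 split, main 373), 654 (Pi16 or Dpp4, main 28) and 35 (Lrig1, main 0), and elastic fibre genes called were 1 and 5 in the first 2. In the same splits DESeq2 gave 693, 298 and 1 genes and 1 and 2 elastic fibre genes; no low-count filter gave 701 and 253, with 2 elastic fibre genes in the second. Counting a cell as positive from 2 UMIs gave 578 genes in the first. Leaving out 1 library gave 0 to 689, 0 to 216 and 0 to 1 genes, with 0, 0 to 1 and 0 elastic fibre genes. The block also called Loxl1 in satellite and Mfap5 in smooth muscle cells (log2 difference -2.63) and changed no other call of an elastic fibre gene.

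For smooth muscle, genes called were 3924 without doublet removal, 1578 in thinned cells, 1591 with only both classes fitted and 111 to 2921 without 1 library, where elastic fibre genes called were 0 to 7. Under 3 fibroblast markers 9 were called. For satellite cells, 3245 to 6134 genes were called without 1 library.

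Some uncalled differences changed sign. Without 1 library, Fbn2 ran from -0.092 to 0.634 and Lox from -0.137 to 0.012 in the first split, and Fbln5 from -0.071 to 0.122 in the Pi16 or Dpp4 split. In the Lrig1 split, Efemp2 ran from -0.062 to 0.129, Fbln1 from -0.081 to 0.044, Fbln5 from -0.023 to 0.081, Fbn1 from -0.086 to 0.145, Lox from -0.162 to 0.091 and Mfap5 from -0.049 to 0.011. In that split Efemp2 was -0.0064 with no filter, -0.011 with the replicate block and -0.024 from 2 UMIs, and Mfap5 was 0.00024 at 4 markers. Thinned, Fbn1 was -0.0039, Fbln1 0.038 and Fbln5 -0.037, and from 2 UMIs Fbln1 was 0.068 and Fbln5 -0.037. In smooth muscle Efemp2 was 0.026 thinned and ran from -0.287 to 0.104 without 1 library, as Fbln5 did from -0.233 to 0.157 in satellite cells.

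The mean share over the 10 genes in fibroblasts was 33.0% at 2000 UMIs and 63.8% unthinned, against 53.2%, and 50.9% to 54.7% without 1 library. Small groups limit the depth: 87 smooth muscle cells, and in library 2 69 cells without Hhip, Wnt16 or Col23a1, 31 and 38 in its crossed groups, 32 endothelial cells and 6 with Dpp4.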

Other observations

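Among epithelial cells, those with a UMI of Trp63, a basal cell marker, held 17.6, 16.7 and 18.8 CPM of Fbln2, against 2.22, 3.06 and 5.57 CPM in those without. Fbln1 stood at 34.5, 28.8 and 56.5 CPM with Trp63 and at 14.2, 16.8 and 26.2 CPM without, and Efemp2 at 7.24, 5.96 and 7.56 CPM against 3.21, 2.88 and 4.26 CPM. Fbn1 went the other way or was level, at 10.5, 9.65 and 17.1 CPM against 10.5, 11.5 and 24.7 CPM. After thinning, a UMI of Fbln2 was found in 7.16% ± 0.788 of cells with and 1.73% ± 1.03 of cells without Trp63 (SD, n = 3). These groups were chosen after seeing the data and were not tested.

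Fibroblasts with a UMI of Wnt16 (985 cells) held 134, 145 and 235 CPM of Loxl1, the lowest of the 5 single-gene groups in each library, against 160, 173 and 277 CPM in the 2558 cells with Hhip and 173, 176 and 308 CPM in the 3180 with Col23a1. Their Fbln1 was 639, 590 and 970 CPM. The 106 cells with Dpp4 (83, 6 and 17 per library) held 919, 1164 and 561 CPM of Fbn1 and 115, 336 and 709 CPM of Eln. Fbn2 made up 1.17%, 4.59% and 37.4% of their fibrillin CPM, against 2.76%, 6.69% and 2.96% in the 1142 cells with Pi16. The groups share cells, so their values are given side by side.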
